A study of Homo sapiens with 9 samples.

Results

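CD99, IL1RAP, STEAP1, STEAP2, CD276, ENPP1, LINGO1, B4GALNT1 and ST8SIA1 encode cell surface antigens, or enzymes that build the surface ganglioside GD2, and have been followed as targets of antibody or cell therapy in Ewing sarcoma and related tumours. They were taken by gene symbol from the deposited gene tables, where they are 9 of 58381 genes. Their RNA was measured by RNA-seq in TC-32, an established human Ewing sarcoma cell line with the EWSR1::FLI1 gene fusion. The question was which genes ETS1, an ETS family transcription factor, regulates while that fusion is present. The 3 groups were cells with a pLOC lentiviral vector carrying RFP (the control), cells with pLOC ETS1 at a lower level (ETS1-Low), and cells with pLOC ETS1 at the level of fusion-depleted cells (ETS1-High). There were 3 libraries per group, and all cells came from the same line and had been transduced and selected with puromycin. The cells were sorted singly into clones whose number per group is not given in the sources used here, so a difference between groups and a difference between clones cannot be told apart. Nothing in the labels says that the 3 libraries of a group came from separate cultures, so the p-values measure only the spread between these libraries, which may be technical.

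Ewing sarcoma cells are known for dense CD99 on their membrane, a glycoprotein used as their diagnostic marker. EWSR1::FLI1 binds ETS motifs and GGAA repeats and acts on many genes, and wild-type ETS1 also binds the GGAA core. IL1RAP is the shared co-receptor of the interleukin-1 family, and the STEAP proteins are a membrane family that includes metalloreductases. CD276 (B7-H3) is an immune checkpoint ligand. ENPP1 is an ectoenzyme that cleaves ATP and extracellular cGAMP, and LINGO1 is a leucine-rich repeat receptor of neurons. GD2 is made from lactosylceramide in steps: ST3GAL5 makes GM3, ST8SIA1 (GD3 synthase) makes GD3, and B4GALNT1 (GM2/GD2 synthase) makes GD2.

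RefSeq promoter windows were found for 8 of the 9 genes (build GRCh38.p14), and those of 4 genes that rose with ETS1 and of 2 that fell are shown, since they hold the ETS core letters in question. Each stretch is the part of the 250 bases before the RefSeq start that holds no annotated exon of the gene, printed 5′ to 3′ on the plus strand, with GGAA, or TTCC where the core lies on the other strand, in capitals. The stretches are chr3:190513835-190514050 for IL1RAP, chr7:90154219-90154455 for STEAP1, chr7:90211490-90211685 for STEAP2, chrX:2691045-2691186 for CD99, chr15:73684133-73684268 for CD276 and chr6:131807770-131808015 for ENPP1. STEAP2 and CD276 each have 2 RefSeq starts, of which the first is shown, and the stretch of STEAP2 lies within the gene as GENCODE v44 annotates it.
IL1RAP: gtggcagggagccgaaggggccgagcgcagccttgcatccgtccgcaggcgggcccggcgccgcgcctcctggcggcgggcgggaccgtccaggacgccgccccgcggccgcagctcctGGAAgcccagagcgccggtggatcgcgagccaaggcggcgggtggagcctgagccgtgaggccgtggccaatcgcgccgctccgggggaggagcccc
STEAP1: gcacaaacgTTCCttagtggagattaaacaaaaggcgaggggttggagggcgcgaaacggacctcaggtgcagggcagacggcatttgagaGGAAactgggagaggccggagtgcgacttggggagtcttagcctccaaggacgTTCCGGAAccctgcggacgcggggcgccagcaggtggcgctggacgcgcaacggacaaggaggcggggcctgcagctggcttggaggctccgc
STEAP2: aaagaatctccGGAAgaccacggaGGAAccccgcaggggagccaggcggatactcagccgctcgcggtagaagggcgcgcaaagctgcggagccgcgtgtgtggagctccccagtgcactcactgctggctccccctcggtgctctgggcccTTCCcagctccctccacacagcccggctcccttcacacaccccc
CD99: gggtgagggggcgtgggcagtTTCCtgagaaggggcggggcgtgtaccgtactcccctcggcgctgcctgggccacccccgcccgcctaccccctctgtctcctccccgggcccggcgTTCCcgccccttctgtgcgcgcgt
CD276: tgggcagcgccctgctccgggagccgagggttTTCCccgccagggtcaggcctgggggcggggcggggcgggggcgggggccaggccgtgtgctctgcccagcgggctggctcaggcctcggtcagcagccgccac
ENPP1: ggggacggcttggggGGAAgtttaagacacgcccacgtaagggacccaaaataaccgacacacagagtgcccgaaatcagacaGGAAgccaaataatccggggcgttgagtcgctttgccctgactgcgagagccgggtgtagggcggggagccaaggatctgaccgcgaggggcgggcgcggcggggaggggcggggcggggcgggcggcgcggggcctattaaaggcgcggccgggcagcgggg

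GGAA was counted on both strands of the whole 250 bases, part of which is not printed. It occurred 3 times for IL1RAP, 4 times for STEAP1, 4 times for STEAP2, 2 times for CD99, 2 times for CD276 and 2 times for ENPP1, and the median over all 35116 RefSeq windows was 3. Of all windows, 92.7% held it. The longer letters CCGGAAGT, a high-affinity ETS site that contains GGAA, were in 0 of the 18 windows of these genes and in 3.42% of all windows. The repeat GGAAGGAA, which also contains GGAA, was in 0 of the 18 and in 3.06% of all. ST8SIA1, which fell, had 4, the second window of CD276 had 4, and the 9 windows of LINGO1, which rose, had 0 to 4. Rising and falling genes thus overlapped in their counts, and letters in a window do not show binding.

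The totals of expected counts ran from 39484704 to 46654734 per library. ETS1 itself ran from 1.81 to 2.15 CPM among RFP libraries, from 10.3 to 10.9 CPM among ETS1-Low and from 18.2 to 19.7 CPM among ETS1-High, so the libraries followed their labels. CPM are read counts scaled to TMM-normalised library sizes. All 10 genes listed as Ewing sarcoma markers, CD99 and STEAP1 among them, had a mean above 1 FPKM in each group, with a summed level of 1044 to 1066 FPKM in RFP, 1397 to 1414 in ETS1-Low and 1450 to 1461 in ETS1-High. Summed haematopoietic markers (6 genes) reached at most 1.64 FPKM, endothelial (4) 1.98, epithelial (4) 1.44 and muscle markers (3) 0.64 FPKM in any library. Fibroblast markers (5 genes) summed to 11.2 to 13.0, 6.43 to 8.19 and 11.8 to 13.6 FPKM in RFP, ETS1-Low and ETS1-High. The neural list (4 genes) summed to 21.7 to 23.1, 51.6 to 55.5 and 105.4 to 109.5 FPKM, and its TH and DBH were at 0 in both ETS1 groups. The part of these in the results was not tested.

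In ETS1-High against RFP all 9 genes were called (edgeR quasi-likelihood test with Benjamini-Hochberg adjusted p under 0.05), where 74.2% of all 17235 tested genes were. IL1RAP, STEAP2, LINGO1, CD99 and STEAP1 were higher, and CD276, ENPP1, B4GALNT1 and ST8SIA1 were lower, where 37.0% of all tested genes were called higher and 37.2% lower. A change of at least 2-fold was reached by 5 of the 9 (IL1RAP, STEAP2, LINGO1, CD276 and ST8SIA1), against 21.0% of all tested genes (9.64% higher and 11.4% lower). In ETS1-Low relative to RFP all 9 were called as well (74.1% of all genes), 6 of them higher, with B4GALNT1 among the rises, and 3 lower (37.9% and 36.2% of all genes), and 3 changed at least 2-fold (IL1RAP, STEAP2 and ST8SIA1; 20.6% of all genes, 8.47% higher and 12.2% lower). In ETS1-High against ETS1-Low 8 of 9 were called (59.2% of all genes), 5 higher and 3 lower (29.9% and 29.3% of all genes), the exception being ST8SIA1. In that comparison 0 of the 9 changed 2-fold, by edgeR, DESeq2 or limma, against 9.74% of all genes (6.05% higher and 3.69% lower), while 8 had an unadjusted p under 0.05 in edgeR. ST8SIA1 passed the filter on low counts only through the RFP libraries and so had to differ; the other 8 genes were well above it in every group. Most genes of the table were called, so a call in itself says little about these 9. The RFP libraries serve in both comparisons with RFP, which are therefore not independent, and in bulk RNA fewer cells with a transcript and less of it per cell cannot be told apart.

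**Figure D1:**
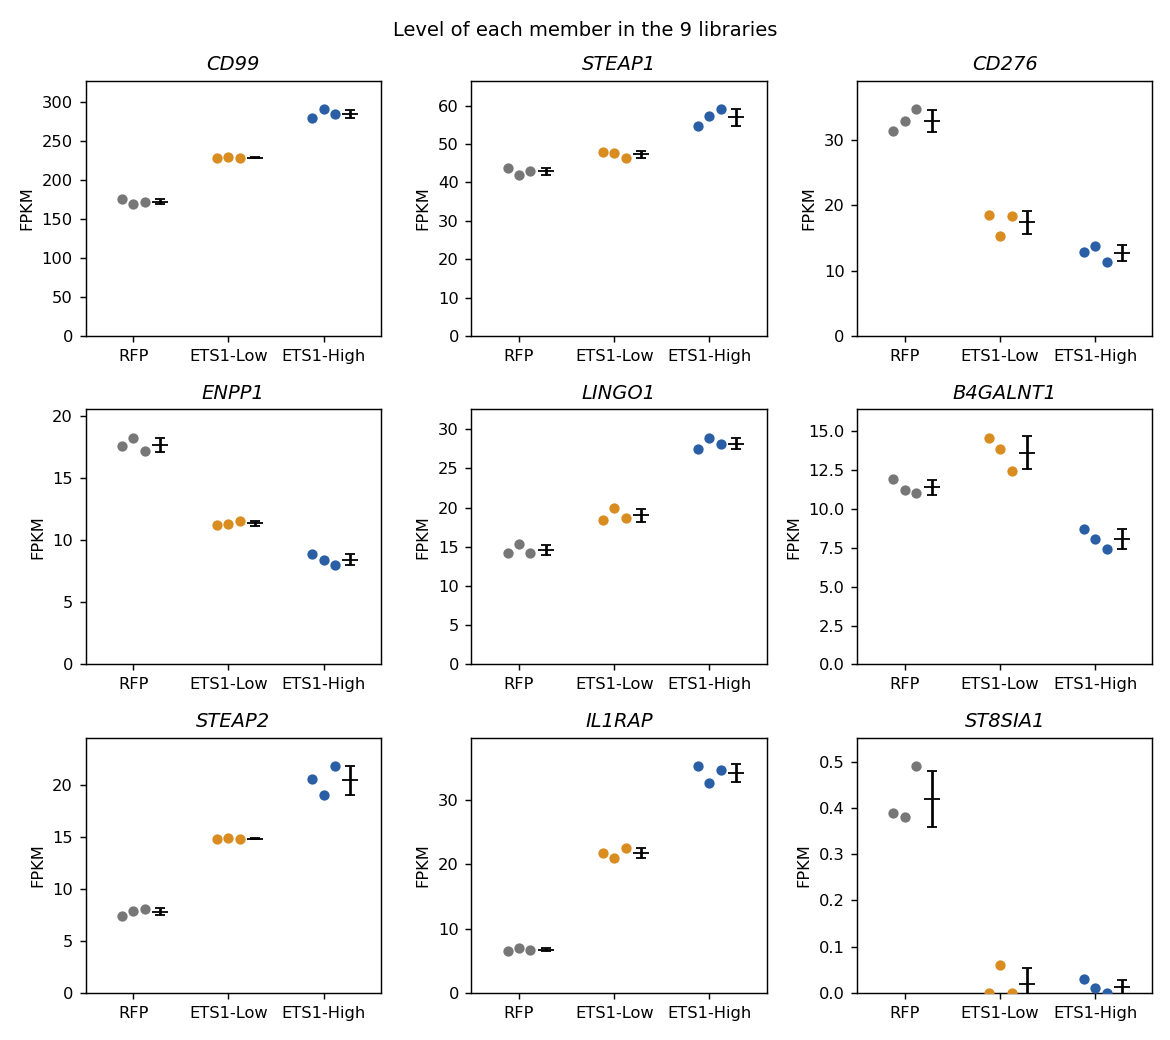
FPKM (linear axis from 0) of the 9 genes in each library of RFP, ETS1-Low and ETS1-High; coloured points are libraries, and the black mark and bar are the mean and SD of 3 libraries. IL1RAP, STEAP2, LINGO1, CD99 and STEAP1 step up from RFP to ETS1-Low to ETS1-High, CD276 and ENPP1 step down, B4GALNT1 is highest in ETS1-Low, and ST8SIA1 is near 0 in both ETS1 groups.

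**Figure D2:**
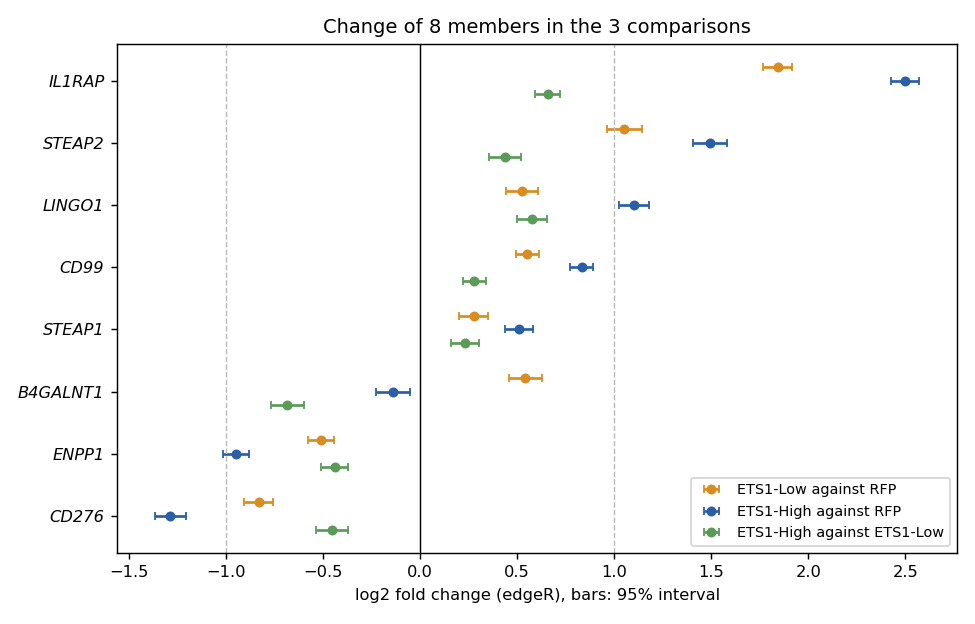
Log2 fold change of 8 genes in the 3 comparisons (points, edgeR) with 95% intervals (bars); dashed lines mark a 2-fold change. The step from ETS1-Low to ETS1-High has the same sign as the step from RFP to ETS1-Low for each gene shown but B4GALNT1, which rises and then falls.

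CD99 (ENSG00000002586.19; chromosome X, 2691187 to 2741309 on GRCh38, plus strand) was the most abundant of the 9 transcripts in every group. It had 169.1, 161.7 and 165.9 CPM in the RFP libraries. The ETS1-Low libraries had 244.3, 243.2 and 241.7 CPM, and the ETS1-High libraries 288.4, 303.5 and 293.3 CPM. The 3 groups did not overlap and stood in the order of ETS1. On the log2 scale CD99 rose by 0.83 (SE 0.03; adjusted p 4.53e-30, edgeR) in ETS1-High and by 0.55 (SE 0.03; adjusted p 1.59e-22, edgeR) in ETS1-Low relative to RFP, and the ETS1 groups differed by 0.28 (SE 0.03; adjusted p 8.4e-12, edgeR). CD99 lies in the pseudoautosomal region and is listed in 2 rows with identical values, between which its reads were split. The sum of both rows was 344.4 ± 6.05 FPKM in RFP, 457.6 ± 1.38 in ETS1-Low and 570.2 ± 10.8 in ETS1-High (SD, n = 3). The 21 expressed genes within 10 Mb of CD99 had a median change of 0.61 (ETS1-High) and 0.52 (ETS1-Low) relative to RFP, so CD99 stood 0.23 and 0.04 above its neighbours. The part of the region in its rise was not tested.

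The list counts that follow include those of the 9 genes that a list holds, and stand beside 37.0% of all tested genes called higher and 37.2% lower in ETS1-High, and 37.9% and 36.2% in ETS1-Low, each relative to RFP. No list was tested as a set. Like ST8SIA1, the genes STEAP1B, ST6GALNAC3, VSIR and IL18 reached the minimum of the count filter in every library only in the group where they were highest. The same held for ADORA1, counted in the list of ENPP1, and for EGFR, PROM1, TNFRSF10A and LRRC15, counted among the other surface proteins. These added genes are named only for that reason. For all of them, calls of that group against the others were built in. Of the 5 genes of the CD99 family and its ligands, 2 rose in ETS1-High against RFP, CD99 and XG, and 3 did not pass. XG, a blood group antigen related to CD99 that lies beside it at the pseudoautosomal boundary, rose from 4.61 ± 0.45 FPKM in RFP to 26.7 ± 0.21 in ETS1-Low and 27.3 ± 0.44 in ETS1-High (SD, n = 3), or by 2.76 on the log2 scale (adjusted p 4.84e-43, edgeR) in ETS1-High. CD99L2, the other family member, had 32.5 ± 0.56, 20.8 ± 0.55 and 29.5 ± 1.15 FPKM. It fell in ETS1-Low by 0.51 (adjusted p 1.98e-19, edgeR), while its difference between ETS1-High and RFP was -0.01 (adjusted p 0.714, edgeR). The paired receptors PILRA and PILRB, which can bind CD99-like ligands, changed by -0.13 and -0.08 in ETS1-High (adjusted p 0.542 and 0.0588, edgeR). In ETS1-Low PILRB fell by 0.23 (adjusted p 2.14e-06, edgeR), and the list had 2 higher and 2 lower. The median of the list was -0.01 in ETS1-High and -0.23 in ETS1-Low relative to RFP, where the median of all tested genes was -0.01 and 0.01.

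IL1RAP (ENSG00000196083.9; chromosome 3, 190514051 to 190659750, plus strand), the co-receptor that lets IL1R1 and its relatives signal, had the largest rise of the 9. Its RFP libraries had 24.0, 24.9 and 26.0 CPM. The ETS1-Low libraries had 89.7, 88.8 and 90.05 CPM, and the ETS1-High libraries 144.0, 136.2 and 143.3 CPM. The groups lay far apart next to their spread and did not overlap. IL1RAP was 5.65-fold higher in ETS1-High (log2 fold change 2.50, SE 0.04; adjusted p 3.7e-47, edgeR) and 3.59-fold higher in ETS1-Low (1.84, SE 0.04; adjusted p 9.34e-41, edgeR) than in RFP. ETS1-High exceeded ETS1-Low by 0.66 (SE 0.03; adjusted p 9.2e-24, edgeR). The size of its change in ETS1-High was larger than that of 92.9% of all tested genes. The 87 expressed genes around IL1RAP had a median change of -0.03 in ETS1-High against RFP.

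Of 22 genes of the interleukin-1 receptor family and its signalling, 15 were tested. In ETS1-High against RFP 11 were higher, 2 lower and 2 not called, with a median of 0.56. In ETS1-Low 9 were higher and 3 lower, with a median of 0.44. IL1R1, the ligand-binding partner of IL1RAP, stayed low but rose from 0.15 ± 0.06 FPKM in RFP to 0.48 ± 0.12 and 0.88 ± 0.06 in ETS1-Low and ETS1-High (SD, n = 3; log2 fold change 3.59 in ETS1-High, adjusted p 1.64e-21, edgeR). MYD88, the adaptor of the receptor complex, rose from 8.99 ± 0.34 to 12.6 ± 0.58 and 18.9 ± 1.11 FPKM. SIGIRR, an inhibitory member of the family, rose from 9.36 ± 0.45 to 20.9 ± 1.89 and 21.8 ± 0.17 FPKM. The ligand IL33 fell instead, from 12.5 ± 0.13 to 4.13 ± 0.28 and 2.88 ± 0.13 FPKM (log2 fold change -2.04 in ETS1-High, adjusted p 8.73e-32, edgeR). IRAK1, the kinase downstream of MYD88, fell by 0.29 in ETS1-Low but rose by 0.56 in ETS1-High against RFP (adjusted p 1.04e-10 and 2.25e-20, edgeR). IL18, another cytokine of the family, had 177 to 227 counts in the ETS1-Low libraries, against 0 to 2 in RFP and 6 to 11 in ETS1-High. ETS1-Low thus stood far above both other groups.

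STEAP1 (ENSG00000164647.8; chromosome 7, 90154456 to 90164829, plus strand) and STEAP2 (ENSG00000157214.13; chromosome 7, 90167590 to 90238137, plus strand) lie 2761 bases apart on the same strand, as GENCODE v44 annotates them. The 2 RefSeq starts of STEAP2 lie further inside its span, just after positions 90211739 and 90213819. STEAP1 had 45.6, 42.8 and 44.9 CPM in RFP, 54.6, 53.7 and 53.3 CPM in ETS1-Low, and 60.5, 64.2 and 64.8 CPM in ETS1-High. STEAP2 had 34.8, 37.6 and 39.8 CPM in RFP, 76.6, 78.4 and 77.7 CPM in ETS1-Low, and 105.8, 98.8 and 111.0 CPM in ETS1-High. Both stepped up with ETS1 without overlap between groups, STEAP1 little and STEAP2 more. STEAP1 rose by 0.51 (SE 0.04; adjusted p 1.06e-17, edgeR) in ETS1-High and by 0.28 (SE 0.04; adjusted p 4.23e-09, edgeR) in ETS1-Low relative to RFP. STEAP2 rose by 1.49 (SE 0.04; adjusted p 1.53e-22, edgeR) and by 1.05 (SE 0.04; adjusted p 1.28e-18, edgeR). Between the ETS1 groups STEAP1 differed by 0.23 (adjusted p 2.74e-07, edgeR) and STEAP2 by 0.44 (adjusted p 1.7e-10, edgeR). Per length, STEAP1 stayed the more abundant, at 42.9 ± 0.98 against 7.78 ± 0.33 FPKM in RFP and 57.0 ± 2.17 against 20.4 ± 1.39 FPKM in ETS1-High (SD, n = 3). The 80 expressed genes around STEAP1 had a median change of -0.03 (ETS1-High) and -0.06 (ETS1-Low) relative to RFP.

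STEAP3, a ferrireductase of endosomes, fell from 13.9 ± 0.54 FPKM in RFP to 8.50 ± 0.55 in ETS1-Low and 4.42 ± 0.19 in ETS1-High (SD, n = 3; log2 fold change -1.56 in ETS1-High, adjusted p 7.59e-34, edgeR). STEAP1B, a close copy of STEAP1, had 40.9 to 48.2 expected counts in RFP, 3.88 to 14.3 in ETS1-Low and 4.91 to 10.9 in ETS1-High, a fall that the filter built in. All 9 expected counts of STEAP1 were non-whole at a tolerance of 0.001, so reads were shared between near-identical sequences, and the level of STEAP1B is uncertain. STEAP4 was too low to be tested, with 0 to 3 counts in any library. Of the 4 tested family members 2 were called higher against RFP in each ETS1 group and 2 lower, STEAP1B among the latter.

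CD276 (ENSG00000103855.17; chromosome 15, 73683966 to 73714514, plus strand) fell in both ETS1 groups. It had 68.2, 68.4 and 69.7 CPM in RFP. The ETS1-Low libraries had 39.5, 37.0 and 39.5 CPM, and the ETS1-High libraries 28.1, 29.2 and 27.3 CPM. All 3 groups were separate. Its log2 fold change was -1.29 (SE 0.04; adjusted p 3.23e-33, edgeR) in ETS1-High and -0.83 (SE 0.04; adjusted p 1.06e-25, edgeR) in ETS1-Low relative to RFP, and -0.45 (SE 0.04; adjusted p 1.04e-13, edgeR) between the ETS1 groups. In the last comparison the 145 expressed genes around it had a median change of -0.36, so CD276 stood 0.09 below them, and the part of the region was not tested. Against RFP those genes showed median changes of -0.08 (ETS1-High) and 0.28 (ETS1-Low), far from the fall of CD276.

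Among the other immune ligands, some rose and some fell. Of 13 B7 and related checkpoint ligands 9 were tested, and in ETS1-High against RFP 6 were higher and 3 lower, with a median of 0.57. In ETS1-Low 5 were higher and 2 lower, with a median of 0.59. PVR and NECTIN2, ligands of TIGIT and DNAM-1 on T and NK cells, rose. PVR went from 22.4 ± 0.30 FPKM in RFP to 38.8 ± 0.88 in ETS1-Low and 41.4 ± 0.41 in ETS1-High, and NECTIN2 from 48.4 ± 2.33 to 70.1 ± 1.58 and 69.0 ± 1.87 FPKM (SD, n = 3). PDCD1LG2 (PD-L2) was low in RFP and ETS1-Low, at 0.69 ± 0.23 and 0.57 ± 0.09 FPKM, and rose to 3.08 ± 0.27 FPKM in ETS1-High (log2 fold change 2.28, adjusted p 9.96e-17, edgeR). NCR3LG1, the ligand of the NK receptor NKp30, rose by 1.12 in ETS1-Low and 0.55 in ETS1-High (adjusted p 1.07e-21 and 1.89e-10, edgeR). VSIR (VISTA) was low, with 0 to 6 counts in RFP, 8 to 25 in ETS1-Low and 43 to 45 in ETS1-High. CD47, a signal that restrains macrophages, fell by 0.17 in ETS1-High (adjusted p 5.55e-05, edgeR), and its change of -0.07 in ETS1-Low did not pass (adjusted p 0.104, edgeR). ICOSLG, the ligand of ICOS on T cells, fell by 0.46 in ETS1-High and 0.47 in ETS1-Low (adjusted p 0.0182 and 0.0163, edgeR), and is named after its values were seen to complete the 3 that fell.

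ENPP1 (ENSG00000197594.11; chromosome 6, 131808016 to 131895155, plus strand) also fell in the order of ETS1. Its levels were 102.9, 106.1 and 103.7 CPM in RFP. They were 72.6, 72.7 and 74.3 CPM in ETS1-Low, and 56.6, 53.5 and 52.1 CPM in ETS1-High. The groups did not overlap. The log2 fold change was -0.95 (SE 0.03; adjusted p 3.9e-30, edgeR) in ETS1-High and -0.51 (SE 0.03; adjusted p 1.75e-19, edgeR) in ETS1-Low relative to RFP, and -0.44 (SE 0.03; adjusted p 9.42e-16, edgeR) between them. The 51 expressed genes around it had medians of -0.12 and -0.18 against RFP. A processed pseudogene overlaps an exon of ENPP1 on the other strand, and though the library kit marks strand, its use in the counting is not given in the sources used here.

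Of 19 genes of pyrophosphate, adenosine and cGAMP handling 15 were tested. In ETS1-High against RFP 3 were higher and 9 lower, with a median of -0.37, and in ETS1-Low 5 were higher and 8 lower, with a median of -0.51. ANKH, which exports ATP and citrate from the cell, went from 4.85 ± 0.28 FPKM in RFP to 0.27 ± 0.14 in ETS1-Low and 0.38 ± 0.03 in ETS1-High (SD, n = 3). NT5E (CD73), which makes adenosine from AMP, fell from 34.9 ± 0.07 FPKM to 9.56 ± 0.14 in ETS1-Low and 16.4 ± 0.67 in ETS1-High. LRRC8A, a channel subunit that can carry cGAMP, fell by 0.85 in ETS1-Low and 0.28 in ETS1-High. STING1 (listed as TMEM173), the cGAMP receptor, fell by 0.37 in ETS1-High (adjusted p 3.7e-10, edgeR) and rose by 0.12 in ETS1-Low (adjusted p 0.0105, edgeR). The 3 rises in ETS1-High were ENPP2 and the phosphate carriers SLC20A1 and SLC20A2. In ETS1-Low these 3, STING1 and the folate and cGAMP carrier SLC19A1 (0.11, adjusted p 0.00984, edgeR) rose; SLC20A1 and SLC19A1 are named after their values were seen. ENPP2 (autotaxin), a relative of ENPP1 that acts on lysophospholipids, rose from 0.08 ± 0.03 FPKM to 3.19 ± 0.18 and 14.5 ± 0.48 FPKM, opposite to ENPP1. SLC20A2 rose from 11.1 ± 0.65 to 22.3 ± 0.78 and 32.7 ± 2.44 FPKM.

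LINGO1 (ENSG00000169783.12; chromosome 15, 77613027 to 77820900, minus strand) rose in steps. It had 32.1, 32.2 and 31.8 CPM in RFP, 46.4, 44.8 and 47.1 CPM in ETS1-Low, and 65.5, 72.3 and 68.4 CPM in ETS1-High. No library of one group reached the range of another. LINGO1 was higher by 1.10 (SE 0.04; adjusted p 1.84e-30, edgeR) in ETS1-High and by 0.53 (SE 0.04; adjusted p 9.3e-17, edgeR) in ETS1-Low relative to RFP, and the ETS1 groups differed by 0.58 (SE 0.04; adjusted p 6.93e-19, edgeR). It lies 3.9 Mb from CD276 on the same chromosome, which moved the other way. The 121 expressed genes around LINGO1 had a median change of 0.26 in ETS1-Low and -0.13 in ETS1-High relative to RFP. LINGO1 stood 0.27 and 1.24 above these medians. In ETS1-High against ETS1-Low the median was -0.35, and LINGO1 stood 0.93 above it. The part of the region in its rise was not tested.

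LINGO1 works in neurons with the Nogo receptor RTN4R and the neurotrophin receptor NGFR or TNFRSF19. Of 15 genes of that complex and its ligands 9 were tested, and 4 were higher and 3 lower in ETS1-High against RFP, with a median of 0.20. In ETS1-Low 4 were higher and 3 lower as well, with a median of 0.11. The members split. RTN4R went from 3.01 ± 0.26 FPKM in RFP and 2.94 ± 0.24 in ETS1-Low to 4.69 ± 0.32 in ETS1-High (SD, n = 3; log2 fold change 0.77, adjusted p 2.86e-11, edgeR). The ligand RTN4 (Nogo) rose from 79.4 ± 2.03 to 104.4 ± 1.45 and 116.8 ± 1.59 FPKM. NGFR fell from 34.4 ± 0.70 to 28.1 ± 0.56 and 25.0 ± 0.85 FPKM, and RTN4RL2, a homologue of the Nogo receptor, from 5.15 ± 0.23 to 3.57 ± 0.08 and 3.24 ± 0.22 FPKM. TNFRSF19 fell by 3.03 in ETS1-Low and 0.71 in ETS1-High from 0.75 ± 0.05 FPKM. RHOA, the GTPase the complex acts on, rose by 0.20 in ETS1-High (adjusted p 2.62e-08, edgeR).

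B4GALNT1 (ENSG00000135454.13; chromosome 12, 57623409 to 57633239, minus strand), the last enzyme of GD2 synthesis, was alone among the 8 genes in reversing between the ETS1 levels. It had 31.8, 29.7 and 30.6 CPM in RFP, 45.3, 46.1 and 42.8 CPM in ETS1-Low, and 27.4, 28.5 and 27.7 CPM in ETS1-High. ETS1-Low stood above both other groups, and ETS1-High lay just below RFP without overlap. B4GALNT1 rose by 0.54 (SE 0.04; adjusted p 6.87e-17, edgeR) in ETS1-Low and was lower by 0.14 in ETS1-High (log2 fold change -0.14, SE 0.04; adjusted p 0.00315, edgeR) against RFP. The difference between the ETS1 groups was -0.68 (SE 0.04; adjusted p 7.95e-20, edgeR). On the log2(FPKM + 1) scale, which understates the change of low genes, the changes against RFP were 0.24 in ETS1-Low and -0.45 in ETS1-High (adjusted p 0.0112 and 0.000253, limma). The median of all tested genes shifted by -0.13 and -0.11 on that scale. B4GALNT1 overlaps 2 annotated genes on the other strand, so its level is uncertain unless the counting used strand. The 189 expressed genes around it had a median change of 0.03 in ETS1-Low and 0.01 in ETS1-High against RFP.

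ST8SIA1 (ENSG00000111728.10; chromosome 12, 22063773 to 22437041, minus strand), which makes the GD2 precursor GD3, was scarce even in RFP. It had 38.0, 30 and 39 expected counts in the RFP libraries, 0, 1 and 1 in ETS1-Low, and 1, 1 and 0 in ETS1-High. Its mean of 0.42 ± 0.06 FPKM in RFP (SD, n = 3) was the lowest of the 9 genes. The groups with ETS1 did not overlap RFP and could not be separated from each other. Over the summed counts of 107 in RFP and 2 in either ETS1 group, RFP was 46.0 times ETS1-Low (95% exact counting interval 12.4 to 385.0) and 48.0 times ETS1-High (13.0 to 401.4). The labels name no molecular identifiers, and these intervals cover counting error only. The adjusted p of the falls was 1.78e-11 in ETS1-Low and 1.16e-11 in ETS1-High (edgeR). ETS1-High against ETS1-Low gave -0.05 on the log2 scale with a 95% interval of -2.52 to 2.42 (adjusted p 0.979, edgeR), so no difference was detectable at this depth.

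The ganglioside pathway was followed from the first glycosylation of ceramide to lysosomal breakdown, with 22 of 23 genes tested. In ETS1-High against RFP 6 were higher and 13 lower, with a median of -0.15. In ETS1-Low 10 were higher and 10 lower, with a median of 0.00 that was -0.02 with DESeq2 size factors. Along the route to GD2, which was singled out after its values were seen, the steps did not move together. UGCG, which makes glucosylceramide, had 13.0 ± 0.32, 13.1 ± 0.26 and 21.4 ± 0.59 FPKM in RFP, ETS1-Low and ETS1-High (SD, n = 3). B4GALT5, which makes lactosylceramide, fell from 35.9 ± 1.27 to 20.4 ± 0.39 and 20.6 ± 0.32 FPKM. ST3GAL5 rose from 2.68 ± 0.31 to 7.37 ± 0.24 and 6.53 ± 0.54 FPKM. The GM3 synthase thus rose in the groups where the GD3 synthase ST8SIA1 was nearly unread.

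Enzymes on branches of the pathway moved in both directions. ST8SIA5, which adds sialic acid to complex gangliosides, went from 3.61 ± 0.40 FPKM in RFP to 11.6 ± 0.65 in ETS1-Low and 0.64 ± 0.11 in ETS1-High (SD, n = 3). Its change was 1.86 in ETS1-Low and -2.48 in ETS1-High against RFP (adjusted p 1.9e-33 and 5.43e-31, edgeR), in the same directions as B4GALNT1. A4GALT, which diverts lactosylceramide to the globo series, rose from 2.52 ± 0.08 to 17.1 ± 1.20 and 8.95 ± 0.68 FPKM, and B3GNT5, which starts the lacto series, from 7.47 ± 0.38 to 14.1 ± 0.48 and 15.2 ± 0.45 FPKM. ST6GALNAC3, a sialyltransferase of gangliosides, had 269 to 316 counts in RFP, 0 in the ETS1-Low libraries and 0 to 3 in ETS1-High. HEXA, a lysosomal subunit that degrades GM2, rose by 0.31 in ETS1-Low and fell by 0.12 in ETS1-High (adjusted p 2.34e-11 and 0.00162, edgeR).

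**Figure D3:**
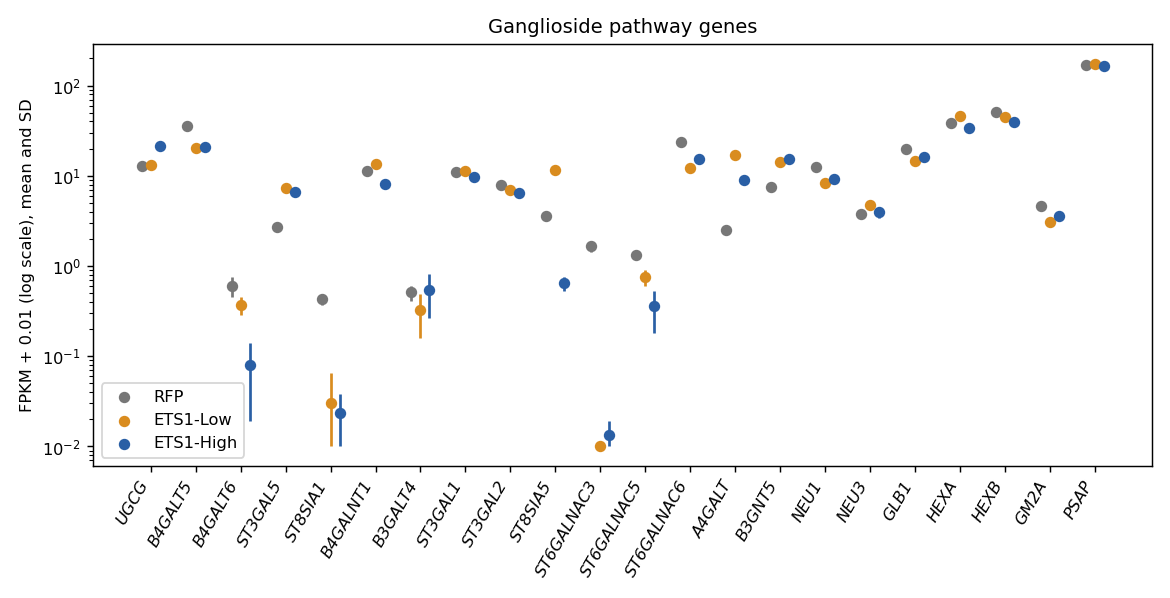
FPKM + 0.01 (log axis) of the 22 tested ganglioside pathway genes; points are means of 3 libraries and vertical lines are ± 1 SD, by group. ST8SIA1 and ST6GALNAC3 drop to the bottom of the axis in both ETS1 groups, ST8SIA5 and B4GALNT1 are highest in ETS1-Low, and ST3GAL5, A4GALT and B3GNT5 lie above RFP in both.

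Per length, the order of the 9 transcripts changed between the groups. In RFP it was CD99 (172.2 FPKM in 1 of its rows), STEAP1 (42.9), CD276 (32.9), ENPP1 (17.6), LINGO1 (14.6), B4GALNT1 (11.4), STEAP2 (7.78), IL1RAP (6.71) and ST8SIA1 (0.42 FPKM), with no overlap between the libraries of neighbours. In ETS1-High it was CD99 (285.1 FPKM), STEAP1 (57.0), IL1RAP (34.2), LINGO1 (28.2), STEAP2 (20.4), CD276 (12.6), ENPP1 (8.42), B4GALNT1 (8.07) and ST8SIA1 (0.01 FPKM). ENPP1 and B4GALNT1 overlapped there, at 8.03 to 8.87 and 7.42 to 8.73 FPKM. IL1RAP moved from rank 8 to rank 3, and CD276 from rank 3 to rank 6. In ETS1-Low IL1RAP was at rank 3 as well, with 21.7 FPKM, while LINGO1 (19.0) and CD276 (17.4 FPKM) followed with overlapping libraries, at 18.39 to 19.99 and 15.28 to 18.45 FPKM.

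**Figure D4:**
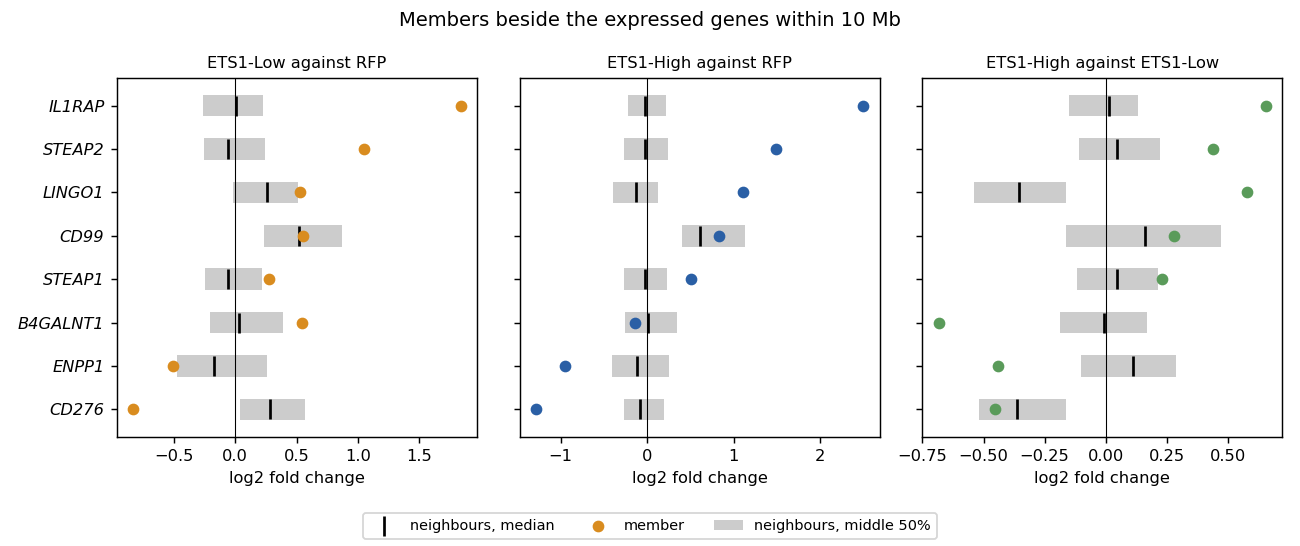
Log2 fold change of 8 genes (coloured points) beside the expressed genes within 10 Mb on each side (black tick, median; grey bar, middle 50%) in the 3 comparisons. CD99 lies inside the grey bar in each comparison, as CD276 does in ETS1-High against ETS1-Low and B4GALNT1 in ETS1-High against RFP. IL1RAP, STEAP1, STEAP2, LINGO1 and ENPP1 lie outside it in all 3, some of them narrowly.

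For the 5 genes with a 2-fold change, the genes whose profile over the 9 libraries was nearest were sought among 12381 others, by the root mean square distance of centred log2 CPM. For IL1RAP they were SDPR (distance 0.06) and KANK1 (0.07). For STEAP2 they were EPDR1 (0.06) and KLHL29 (0.07). VEGFA was among those of CD276 (0.05), and for LINGO1 they were C20orf100 (0.04) and IGFBP2 (0.05). Such profiles were common for most of these genes: 44 genes lay within 0.2 of IL1RAP, 215 of STEAP2, 201 of CD276 and 467 of LINGO1. The nearest to ST8SIA1 were ANK2 (0.48) and PNOC (0.55). With 0 to 1 counts per library in both ETS1 groups, its profile there rests on the small count (0.5) added before the log2. It also falls short of the 100 counts asked of the other genes, so its distances cannot be set beside those above.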

How the data were processed

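RNA-seq of 9 TC-32 libraries was used. The authors deposited RSEM expected counts per gene and RSEM FPKM values, per the file headers. Per the submitters' processing notes, cutadapt 4.4, STAR 2.7.3, featureCounts of Subread 2.0.3 and limma 3.38.3 and the build GRCh38 were named, with no role or order. The annotation release and use of strand are not given in the sources used here. Columns were matched to libraries by name, and 0 were left over.

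Expected counts were rounded and tested in edgeR 4.0.16 (R 4.3.3; quasi-likelihood, robust, TMM, filterByExpr by group) in a single fit of all 9 libraries with group as the only factor; 17235 of 58381 genes were tested, and p-values were adjusted over all of them (Benjamini-Hochberg, threshold 0.05). An SE is the log2 fold change divided by the root of the F statistic. Levels are CPM, or FPKM where genes are compared. The fit was also run on simulated data in which few genes changed. Most genes were called here, so that run does not check the fit under such widespread change. Positions are those of GENCODE v44, matched for 17076 tested genes; local medians use genes above a mean log2 CPM of 1 within 10 Mb.

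The 9 genes and all lists were chosen with earlier results of these data known. Named beside the 9 genes were ETS1 and, from each of 8 lists, the 4 lowest p-values of ETS1-High against RFP and at most 2 more of ETS1-High against ETS1-Low, and the 2 nearest profiles among genes averaging 100 counts or more. Some genes that these rules select are not reported here. All 142 list symbols were found and 117 were tested. Replicates differed beyond counting noise (mean chi-square of 2.66 to 5.19 per gene, where noise gives about 1), so each library was counted once. Alternatives were DESeq2 1.42.0 and its size factors, no filter or at least 10 counts in every library, a replicate block, only the groups compared, limma 3.58.1 on log2(FPKM + 1) or log2(FPKM + 0.1) with or without a minimum mean FPKM of 1, summed pseudoautosomal copies, and leaving out each library.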

Additional observations from a re-analysis of the deposited data

Results flagged for a closer look

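For 8 of the 9 genes the change against RFP was not the same at both ETS1 levels, by the edgeR test of ETS1-High against ETS1-Low. The difference, on the log2 scale, was 0.66 for IL1RAP, 0.58 for LINGO1, 0.44 for STEAP2, 0.28 for CD99 and 0.23 for STEAP1, each a larger rise in ETS1-High. It was -0.45 for CD276 and -0.44 for ENPP1, each a larger fall in ETS1-High. For B4GALNT1 it was -0.68, from a rise in ETS1-Low to a fall in ETS1-High. The size of that fall against RFP depended on the processing, at -0.14 in the main fit and -0.49 to -0.12 under the alternatives. In ETS1-High against ETS1-Low 59.2% of all tested genes were called.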

How the results depend on the processing

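Under 19 alternatives, 9 of which left out a library, every call and direction of the 9 genes held except the direction of ST8SIA1 in ETS1-High against ETS1-Low, which was not called; it became 0.24 and 0.30 without ETS1-Low replicate 2 or 3, and 0.49 without ETS1-High replicate 3 (range over all libraries left out -0.51 to 0.49). ST8SIA1 could not be fitted with at least 10 counts in every library, nor on genes with a mean of at least 1 FPKM. Genes changed at least 2-fold in ETS1-High against RFP fell from 5 to 3 on log2(FPKM + 1), with and without a filter, and those in the ETS1-Low comparison from 3 to 1 there and on log2(FPKM + 0.1). The share of higher among all calls was 49.8% in ETS1-High and 51.2% in ETS1-Low, each relative to RFP, and became 41.2% and 41.6% with limma on log2(FPKM + 1) and a minimum mean, and 38.4% and 36.8% without it; these fits change unit, test and genes tested together. Leaving out a library kept the counts at 9, 9 and 8 called and at 5, 3 and 0 changed 2-fold. With the replicate number as a block the counts were 9, 9 and 8 as well. Deviations of same-numbered libraries correlated at -0.19 to 0.20, and 3 of 9 libraries correlated best with their own number. No pairing by number was thus seen, which with so few libraries does not exclude one. With the pseudoautosomal copies summed, the counts of calls were 9, 9 and 8 too. Of the list counts, 10 of 456 moved by over 1.5 times, all on FPKM values with a minimum mean, where fewer genes are tested.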

Other observations

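A list of other surface proteins proposed as targets in Ewing or related sarcomas held genes that rose and genes that fell. Of its 40 genes 38 were tested, and 23 were lower and 12 higher in ETS1-High against RFP (median -0.37), 22 lower and 9 higher in ETS1-Low (median -0.48), and 16 higher and 12 lower in ETS1-High against ETS1-Low (median 0.14). Of all tested genes 37.2% were lower and 37.0% higher, 36.2% lower and 37.9% higher, and 29.9% higher and 29.3% lower in these comparisons. NCAM1 (CD56), a neural adhesion molecule, fell from 59.2 ± 1.65 FPKM in RFP to 11.0 ± 0.41 in ETS1-Low and 0.78 ± 0.07 in ETS1-High (SD, n = 3; log2 fold change -6.33 in ETS1-High, adjusted p 1.5e-57, edgeR). EPHA2, an ephrin receptor kinase, fell from 32.4 ± 0.60 to 14.8 ± 0.57 and 9.51 ± 0.09 FPKM. CXCR4, a chemokine receptor, fell most in ETS1-Low, from 128.5 ± 3.06 to 20.2 ± 1.03, and was at 53.6 ± 1.35 FPKM in ETS1-High.

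Rises in the same list included ADGRG2 (GPR64), an adhesion G protein-coupled receptor, from 14.4 ± 0.60 FPKM in RFP to 39.1 ± 0.92 in ETS1-Low and 35.9 ± 1.13 in ETS1-High. F3 (tissue factor), which starts coagulation, rose from 3.01 ± 0.37 to 20.7 ± 0.41 and 16.8 ± 0.92 FPKM. CDH11, a mesenchymal cadherin, was at 53.9 ± 3.57 and 45.5 ± 4.63 FPKM in RFP and ETS1-Low and at 96.1 ± 1.36 FPKM in ETS1-High (log2 fold change 0.94 against RFP, adjusted p 2.68e-32, edgeR).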
